A study of Bos taurus with 28 samples.

Results

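The endothelial markers PECAM1, CDH5, VWF, KDR, FLT1, TEK, TIE1 and ENG were described in mammary biopsies, cow by cow and by DGAT1 genotype, as a reading of vessel content. The members were all probe sets whose platform annotation gave exactly 1 gene symbol and that symbol was one of the 8. This rule found 14 of the 24016 tested probe sets, and all 8 genes, of the 9155 that some probe set names alone, had at least 1. FLT1 had 3 probe sets, PECAM1, CDH5, VWF and KDR had 2 each, and TEK, TIE1 and ENG had 1 each. No measured value entered the rule.

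The biopsies came from 28 Holstein-Friesian cows in mid-lactation, on the control diet, a mixed ration of corn silage, grass silage and concentrates. The cows differed in the coding variant of DGAT1, the enzyme that closes triacylglycerol synthesis. There were 4 KK cows (lysine on both alleles), 13 KA cows (heterozygous) and 11 AA cows (alanine on both alleles). Total RNA of each cow, extracted with TRIzol, was labelled in 1 colour and run on an Affymetrix Bovine Genome Array, which reads a gene through 1 or more sets of short probes. Each array is a separate animal, and arrays are named here by genotype and a number within it that has no order.

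Endothelial cells line blood vessels, and in the lactating gland the capillaries around the alveoli deliver the precursors of milk fat, protein and lactose. CDH5 (VE-cadherin) and PECAM1 hold neighbouring endothelial cells together. KDR and FLT1 are receptors for vascular endothelial growth factors, TEK is the receptor of the angiopoietins and TIE1 its partner. ENG (endoglin) is a co-receptor of the TGF-beta and BMP family, and VWF is a clotting protein stored in endothelial cells. PECAM1 is also carried by leukocytes and platelets, and VWF is also stored in platelets. In pieces of whole gland, fewer endothelial cells and less of these RNAs per cell cannot be told apart.

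Each value is a log2 difference from a baseline that belongs to its probe set, so the values of different genes cannot be set against each other. Array medians were near 0, and precision is limited by how many arrays there are, most of all in KK. The arrays AA 2 and AA 9 stood apart, with an SD over probe sets of 0.86 and 0.78 against 0.21 to 0.35 in the other 26. Array numbers in the titles were uneven over the genotypes: numbers 29 to 42 held 4 KK, 2 KA and 8 AA arrays, and numbers 43 to 56 held 0 KK, 11 KA and 3 AA arrays. Levels were lost to the baseline, except for a coarse class. It places a probe set's lowest log2 level and was inferred from the rounding step of its values. Of the 14 luminal milk epithelium probe sets 64.3% were at 8 or more, against 6.78% of all. No endothelial probe set was, and 8 of the 14 were at 4 to 8. The other 6, at 2 to 4, were both of VWF, both of KDR, and FLT1 Bt.13148.1.A1_at and Bt.13148.1.S1_at. Of all 24016 probe sets 9334 were at 2 to 4.

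No endothelial probe set passed the test between genotypes. In a limma fit with Benjamini-Hochberg adjustment over all probe sets, 0 of 24016 probe sets (0%) had an adjusted p under 0.05 in KK minus AA, in KA minus AA, in KK minus KA or in the slope per K allele, and 0 of the 14 endothelial ones did. The smallest adjusted p over all probe sets was 0.909, 0.0602, 1.000 and 0.526 in these comparisons. An unadjusted limma p under 0.05 was reached in either direction by 842 (3.51%), 5247 (21.8%), 681 (2.84%) and 2199 (9.16%) of all probe sets. In KA minus AA, the comparison with the most such probe sets, 4 of the 14 endothelial probe sets were higher in KA at that unadjusted level (28.6%), against 10.8% of all probe sets, and none was lower, against 11.1%. The 4 were those of VWF, CDH5, KDR and ENG given below. In KK minus AA only 1 was higher (2% of all) and none lower (1.51%). In KK minus KA none was higher (1.44%) and 1 was lower (1.39%), CDH5 Bt.23246.1.S1_at. In the slope 1 was higher (4.68%) and none lower (4.48%).

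Read as medians over the 14 probe sets, KK minus AA was 0.05, KA minus AA 0.14, KK minus KA -0.14 and the slope 0.08 per K allele, all in log2. The same medians over all probe sets were 0.0087, 0.02, -0.0015 and 0.009. The difference was above 0 for 8, 12, 5 and 12 of the 14 probe sets, against 52.2%, 54.5%, 49.5% and 54% of all. The KK minus KA median turned sign with array number as a block (0.046), within array numbers 29 to 42 (0.049) and with the block without AA 2 and AA 9 (0.061), and no KK array lay in 43 to 56. KA minus AA and KK minus KA share the KA cows, and KA minus AA and KK minus AA share the AA cows. Without AA 2 and AA 9 the medians of KA minus AA and KK minus AA were 0.08 and -0.02, and 3 endothelial probe sets were higher in KA at the unadjusted level (5.2% of all). With array number as a block 1 was, KDR Bt.29836.1.S1_at (10.1% of all), and with the block and without these arrays 2 were, the same KDR probe set and CDH5 Bt.23246.1.S1_at (4.57%). Within array numbers 29 to 42 none of the 14 was higher at that level (1.07% of all), and within 43 to 56 there were 2 (15.8%). The KA minus AA median was 0.10 with the block and 0.031 with the block without AA 2 and AA 9. In the latter setting 9 of the 14 differences were above 0. The same median was 0.044 within 29 to 42 and 0.15 within 43 to 56.

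**Figure D1:**
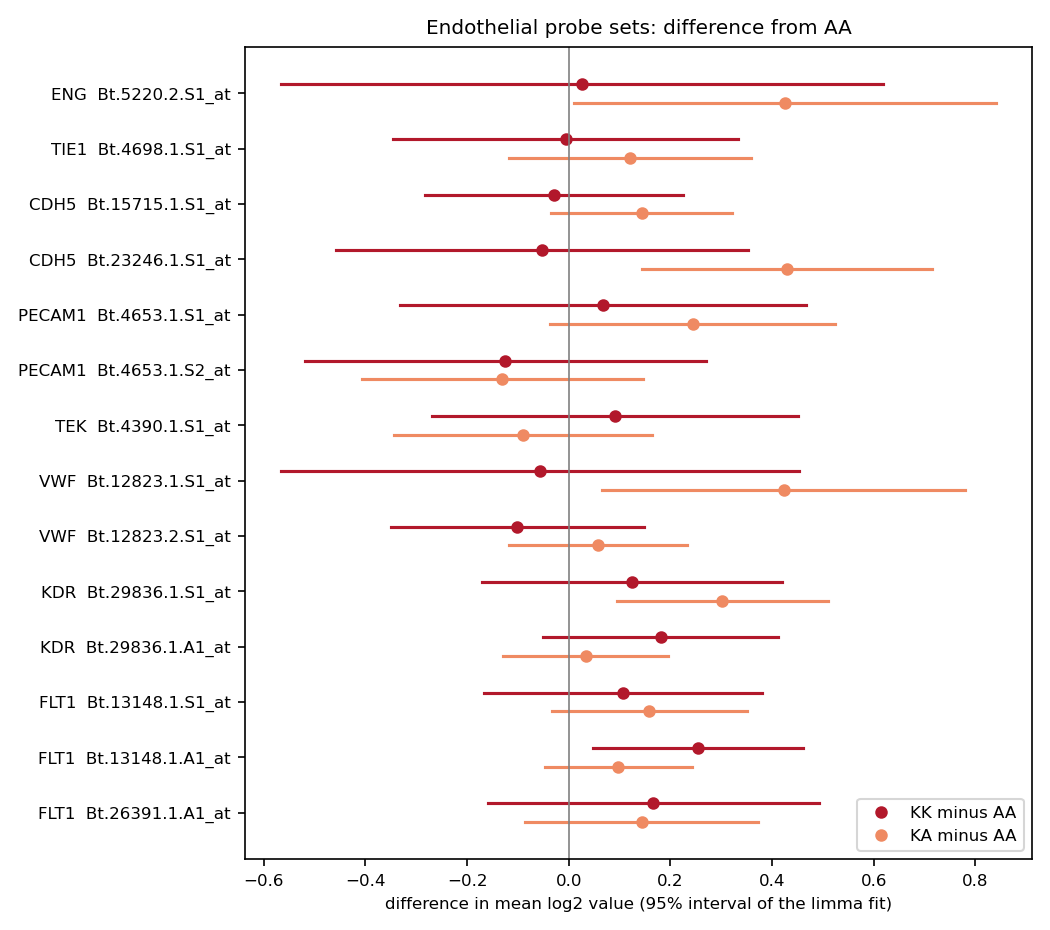
Difference in mean log2 value from AA for each endothelial probe set, with the 95% interval of the limma fit over 28 arrays; KK minus AA is drawn above KA minus AA in each row. The KA interval lies above 0 for ENG, CDH5 Bt.23246.1.S1_at, VWF Bt.12823.1.S1_at and KDR Bt.29836.1.S1_at, the KK interval only for FLT1 Bt.13148.1.A1_at, and none of these passed the adjusted test.

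The junction genes gave mixed readings. CDH5 was read by a pair of probe sets. For Bt.23246.1.S1_at, the log2 values of the 4 KK arrays were 0.07, -0.16, -0.05 and 0.03. In KA the lowest, median and highest were 0.0052, 0.47 and 0.90, and in AA they were -0.87 (AA 2), 0.12 and 0.57 (AA 9). The KK values lay close together inside the AA range, and 11 of 13 KA arrays lay above the highest KK array. The means were -0.03 ± 0.10 in KK (SD, n = 4), 0.46 ± 0.30 in KA (n = 13) and 0.03 ± 0.45 in AA (n = 11). KA exceeded AA by 0.43 ± 0.14 (SE), or 1.35-fold (limma, adjusted p = 0.140), and by 0.29 and 0.30 within the lower and upper array numbers. That these within-range values were alike rested on AA 2 and AA 9. Without these arrays KA still lay above AA in each range, and by 0.39 over both ranges. The means were 0.26 in KA and -0.03 in AA in the lower range, or 0.085 in AA without AA 2, and 0.49 in KA and 0.19 in AA in the upper range, or 0.0027 in AA without AA 9. KK minus KA was -0.48 ± 0.19 (SE; adjusted p = 1.000) and KK minus AA -0.05 ± 0.20 (adjusted p = 0.966).

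The other CDH5 probe set, Bt.15715.1.S1_at, differed less between genotypes. It had -0.06, 0.16, -0.04 and 0.01 in KK, a lowest, median and highest of -0.15, 0.13 and 0.68 in KA, and -0.27, 0.02 and 0.42 in AA, so all 3 genotypes overlapped. KA minus AA was 0.14 ± 0.09 (SE; limma, adjusted p = 0.311), and KK minus AA was -0.03 ± 0.12 (adjusted p = 0.971).

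The 2 PECAM1 probe sets differed in sign. Bt.4653.1.S1_at had -0.39, 0.21, 0.04 and 0.21 in KK, -0.22, 0.27 and 0.60 in KA (lowest, median, highest) and -0.92 (AA 2), 0.10 and 0.56 in AA. Bt.4653.1.S2_at had -0.59, 0.23, 0.15 and 0.02 in KK, -0.55, -0.04 and 0.42 in KA and -0.70, 0.13 and 0.79 (AA 9) in AA. The array KK 1 was the lowest of the KK arrays in both, and the genotypes overlapped in both. KA minus AA was 0.24 ± 0.14 (SE; limma, adjusted p = 0.279) in the first and -0.13 ± 0.14 (adjusted p = 0.548) in the second. KK minus AA was 0.07 ± 0.20 (adjusted p = 0.953) and -0.12 ± 0.19 (adjusted p = 0.920).

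Of the receptors outside the VEGF family, ENG had the widest spread of all members. Its log2 values were -0.12, 0.25, 0.37 and -0.02 in KK, ran over -0.10, 0.46 and 1.25 (lowest, median, highest) in KA, and over -1.69 (AA 2), 0.16 and 0.82 in AA. AA 2 alone lay far below the other 27 arrays, and 8 of 13 KA arrays and 5 of 11 AA arrays lay above the highest KK array. The means were 0.12 ± 0.23 in KK (SD, n = 4), 0.52 ± 0.41 in KA (n = 13) and 0.09 ± 0.69 in AA (n = 11), or 0.28 ± 0.39 in AA without AA 2 and AA 9 (n = 9). KA minus AA was 0.43 ± 0.20 (SE), or 1.34-fold (limma, adjusted p = 0.222). It was 0.25 without AA 2, 0.04 within array numbers 29 to 42 and 0.08 within 43 to 56. In the lower range the ENG means were -0.04 in KA and -0.07 in AA, or 0.16 in AA without AA 2. In the upper range they were 0.62 in KA and 0.54 in AA, or 0.72 in AA without AA 9. In each range the order of KA and AA thus turned on 1 array, and with array number as a block and without both arrays KA minus AA was -0.15. KK minus AA was 0.03 ± 0.29 (SE; adjusted p = 0.990), and -0.15 without AA 2.

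TIE1 and TEK showed smaller differences. TIE1 had -0.24, 0.41, 0.21 and 0.21 in KK, -0.05, 0.31 and 0.81 in KA and -0.47 (AA 2), 0.08 and 0.55 in AA. TEK had 0.17, 0.56, 0.24 and -0.15 in KK, -0.31, 0.07 and 0.38 in KA and -0.42, -0.02 and 0.76 (AA 9) in AA. The genotypes overlapped for both receptors, and AA 2 was the lowest of all arrays for TIE1 and at 0.58 among the highest for TEK. For TIE1, KK minus AA was -0.0062 ± 0.17 (SE; limma, adjusted p = 0.996) and KA minus AA 0.12 ± 0.12 (adjusted p = 0.518). For TEK they were 0.09 ± 0.18 (adjusted p = 0.933) and -0.09 ± 0.12 (adjusted p = 0.660). Without AA 2 and AA 9 the TEK difference between KA and AA was 0.03.

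The VEGF receptor KDR was also split by probe set. Bt.29836.1.S1_at had 0.43, -0.12, 0.02 and -0.06 in KK, -0.01, 0.17 and 0.69 in KA and -0.41 (AA 2), -0.04 and 0.47 in AA. All 13 KA arrays lay above the AA median, while 2 of the 4 KK arrays did. KA minus AA was 0.30 ± 0.10 (SE), or 1.23-fold (limma, adjusted p = 0.144), 0.30 and 0.36 within the lower and upper array numbers, and 0.26 without AA 2 and AA 9. Leaving out AA 1 alone put it past the threshold, at 0.35 (adjusted p = 0.0493). In that fit 525 of all 24016 probe sets passed, with this 1 among the 14 endothelial ones. That was the only endothelial call in any fit that left out 1 array. Bt.29836.1.A1_at had 0.18, 0.43, 0.08 and -0.01 in KK, -0.16, 0.02 and 0.25 in KA and -0.45 (AA 2), 0.05 and 0.33 in AA. Its KA minus AA was 0.03 ± 0.08 (SE; adjusted p = 0.806). KK minus AA was 0.12 ± 0.14 (adjusted p = 0.910) and 0.18 ± 0.11 (adjusted p = 0.909) in the S1 and A1 probe sets.

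FLT1, the other VEGF receptor, gave the only KK minus AA difference that reached the unadjusted level. Bt.13148.1.A1_at had 0.35, 0.08, 0.05 and 0.03 in KK, -0.20, -0.0058 and 0.21 in KA and -0.57 (AA 9), -0.13 and 0.13 in AA. All 4 KK arrays lay above the AA median, 1 of them outside the AA range. KK minus AA was 0.25 ± 0.10 (SE), or 1.19-fold (limma, adjusted p = 0.909), and 0.20 without AA 2 and AA 9. The slope was 0.12 ± 0.05 per K allele (adjusted p = 0.526).

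In KK minus AA the remaining FLT1 probe sets went the same way by less. Without AA 2 and AA 9 that difference was 0.052 in Bt.13148.1.S1_at and 0.050 in Bt.26391.1.A1_at. Bt.13148.1.S1_at averaged 0.04 ± 0.18 in KK (SD, n = 4), 0.09 ± 0.18 in KA (n = 13) and -0.06 ± 0.29 in AA (n = 11). Bt.26391.1.A1_at averaged -0.0066 ± 0.31 in KK, -0.03 ± 0.22 in KA and -0.17 ± 0.33 in AA. In Bt.26391.1.A1_at, AA 9 was the lowest of all arrays at -0.85, and without AA 2 and AA 9 the AA mean was -0.06. For Bt.13148.1.S1_at, KK minus AA was 0.11 ± 0.13 and KA minus AA 0.16 ± 0.09 (SE; limma, adjusted p = 0.911 and 0.302), and for Bt.26391.1.A1_at they were 0.17 ± 0.16 and 0.14 ± 0.11 (adjusted p = 0.909 and 0.421).

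VWF, the stored clotting protein, had a range of 2.02 over the 28 arrays in its first probe set, against 2.94 for ENG, and 1.52 against 1.72 without AA 2 and AA 9. Bt.12823.1.S1_at had -0.0071, -0.28, 0.80 and -0.08 in KK, -0.22, 0.56 and 1.24 in KA and -0.78 (AA 2), 0.19 and 0.93 in AA. One KK array, KK 3, stood well above the other KK arrays, and 5 KA arrays (KA 5, KA 9, KA 10, KA 11 and KA 13) and 1 AA array (AA 10) lay above it. The means were 0.11 ± 0.47 in KK (SD, n = 4), 0.59 ± 0.44 in KA (n = 13) and 0.16 ± 0.45 in AA (n = 11). KA minus AA was 0.42 ± 0.17 (SE), or 1.34-fold (limma, adjusted p = 0.187), 0.38 without AA 2 and AA 9, and 0.28 and 0.14 within the lower and upper array numbers. The means were 0.32 in KA and 0.04 in AA in the lower range, or 0.15 in AA without AA 2, and 0.63 in KA and 0.50 in AA in the upper range, or 0.37 in AA without AA 9, so the order of the ranges turned on these arrays. With array number as a block KA minus AA was 0.19, and 0.22 with the block without both arrays. KK minus AA was -0.06 ± 0.25 (SE; adjusted p = 0.973). Bt.12823.2.S1_at averaged -0.10 ± 0.19 in KK, 0.05 ± 0.18 in KA and -0.0027 ± 0.24 in AA, with KA minus AA at 0.06 ± 0.09 (SE; adjusted p = 0.689).

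**Figure D2:**
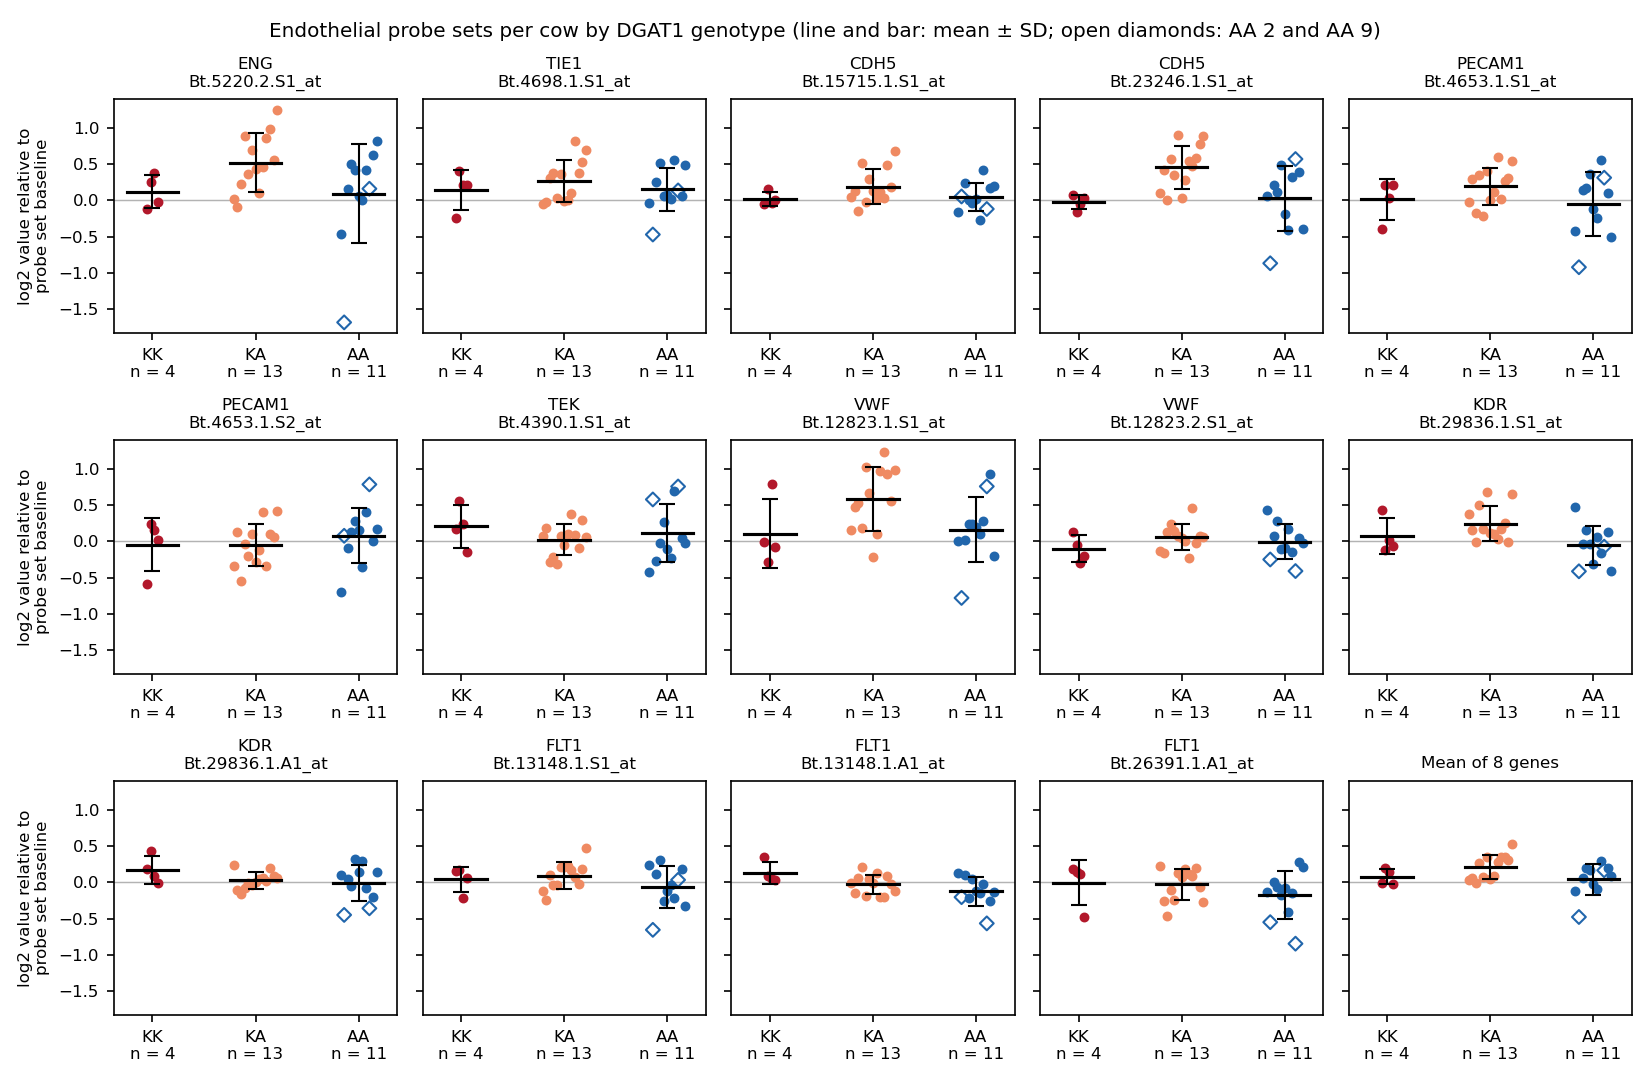
Log2 value of each cow (1 point each) relative to the probe set's baseline, for the 14 endothelial probe sets and for the mean of the 8 genes, in KK (n = 4), KA (n = 13) and AA (n = 11); lines and bars are mean ± SD and open diamonds are AA 2 and AA 9. The genotypes overlap in every panel, and AA 2 is the lowest array for 8 of the 14 probe sets.

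Array by array, the mean over the 8 genes, with a gene's probe sets averaged first, gave a single reading per cow. It was -0.0093, 0.20, 0.15 and -0.02 in KK, ran over -0.0056, 0.27 and 0.52 (KA 13) in KA, and over -0.48 (AA 2), 0.09 and 0.29 (AA 8) in AA. The means were 0.08 ± 0.11 in KK (SD, n = 4), 0.21 ± 0.17 in KA (n = 13) and 0.04 ± 0.22 in AA (n = 11), or 0.09 ± 0.14 in AA without AA 2 and AA 9 (n = 9). The cows of all 3 genotypes overlapped, though 7 of 13 KA arrays and 2 of 11 AA arrays lay above the highest KK array. Within array numbers 29 to 42 the means were 0.08 in KK, 0.05 in KA and 0.0015 in AA. Without AA 2 the AA mean in this range was 0.07, above that of KA. Within 43 to 56 they were 0.24 in KA and 0.15 in AA, or 0.14 in AA without AA 9. All arrays above 0.30 were KA arrays numbered 43 to 56. The mean takes up genes chosen with earlier results of these data known and is given without a test.

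AA 2 and AA 9 stood apart over the whole array and were alike there, with r = 0.75 between the pair. That r is taken over probe sets, and genes are no replicates. Over the 14 endothelial probe sets they had the same sign in 7 and opposite signs in 7. AA 2 was the lowest of all 28 arrays for 8 endothelial probe sets, with -1.69 in ENG, -0.92 in PECAM1 Bt.4653.1.S1_at and -0.87 in CDH5 Bt.23246.1.S1_at. AA 9 was the highest array for TEK (0.76) and PECAM1 Bt.4653.1.S2_at (0.79), and the lowest for 3 other probe sets: FLT1 Bt.13148.1.A1_at and Bt.26391.1.A1_at, and VWF Bt.12823.2.S1_at. Their endothelial means were -0.48 in AA 2 and 0.17 in AA 9, and the means of 29 other vascular endothelial genes were -0.03 and 0.27. Fibroblast markers averaged 1.05 and 1.47 in these arrays, against -0.47 to 0.41 in the other 26. Leukocytes carry PECAM1. Myeloid markers averaged 0.66 and 1.39, against -0.43 to 0.94, and T cell markers 0.46 and 0.72, against -0.44 to 0.51. Platelet markers were at 0.67 and -0.24, against -0.21 to 0.89, and B and plasma cell markers 0.74 and 0.27, against -0.69 to 0.74. The 3 prime minus 5 prime difference of the actin and GAPDH controls, a sign of RNA degradation, was the highest of the AA arrays in AA 2 (0.60) and the lowest in AA 9 (-0.44). The part of RNA quality, stroma, leukocytes and platelets in the readings of these arrays was not tested.

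Whether the endothelial genes went up and down together from cow to cow was read from the 28 pairs of genes over the 26 arrays without AA 2 and AA 9. In 6 of 28 pairs the correlation passed a two-sided permutation test after Benjamini-Hochberg adjustment, all 6 positive. ENG and TIE1 had r = 0.73 (permutation p = 6e-05, adjusted 0.00168) and rho = 0.72 (permutation p = 8e-05). For ENG and CDH5 r was 0.67 (permutation p = 0.00013, adjusted 0.00182) and rho 0.62 (permutation p = 0.00103). For CDH5 and PECAM1 r was 0.66 (permutation p = 0.00022, adjusted 0.00205) and rho 0.68 (permutation p = 0.00026). These 3 pairs held at 0.67, 0.57 and 0.57 without the 2 arrays farthest from the median of the first gene. Within array numbers 29 to 42 and 43 to 56 (13 arrays each) they were 0.72 and 0.72 for ENG and TIE1, 0.34 and 0.64 for ENG and CDH5, and 0.62 and 0.82 for CDH5 and PECAM1.

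PECAM1 and TEK formed another such pair, with r = 0.61 (permutation p = 0.00103, adjusted 0.00721) and rho = 0.59 (permutation p = 0.00187). Without its 2 farthest arrays r was 0.65, and within the array number ranges it was 0.64 and 0.63. The last pairs lay closer to the threshold. ENG and PECAM1 had r = 0.51 (permutation p = 0.00784, adjusted 0.0439) and rho = 0.48 (permutation p = 0.0151), with 0.29 without the 2 farthest arrays and 0.77 and 0.46 within the ranges. VWF and ENG had r = 0.49 (permutation p = 0.0107, adjusted 0.0499) and rho = 0.50 (permutation p = 0.00956). This pair was at 0.02 and 0.31 within the ranges, so it did not hold within array numbers. TIE1 did not pass with CDH5 (r = 0.45, permutation p = 0.0211, adjusted 0.0656) or with PECAM1 (r = 0.43, permutation p = 0.0271, adjusted 0.0757). The VEGF receptors KDR and FLT1 reached r = 0.48 (permutation p = 0.0136, adjusted 0.0542) and rho = 0.45 (permutation p = 0.0223), with 0.55 and 0.44 within the ranges.

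KDR, read as the mean of its probe sets, otherwise ran apart from the junction genes. Over the 26 arrays its r was 0.32 with CDH5 (permutation p = 0.116), -0.10 with PECAM1 (permutation p = 0.634) and 0.06 with ENG (permutation p = 0.774). Within the ranges these readings split: -0.36 and 0.88 with CDH5, -0.73 and 0.63 with PECAM1, and -0.46 and 0.55 with ENG, in numbers 29 to 42 and 43 to 56. The difference between the ranges was not tested. The range 29 to 42 holds 3 genotypes and the range 43 to 56 only KA and AA.

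**Figure D3:**
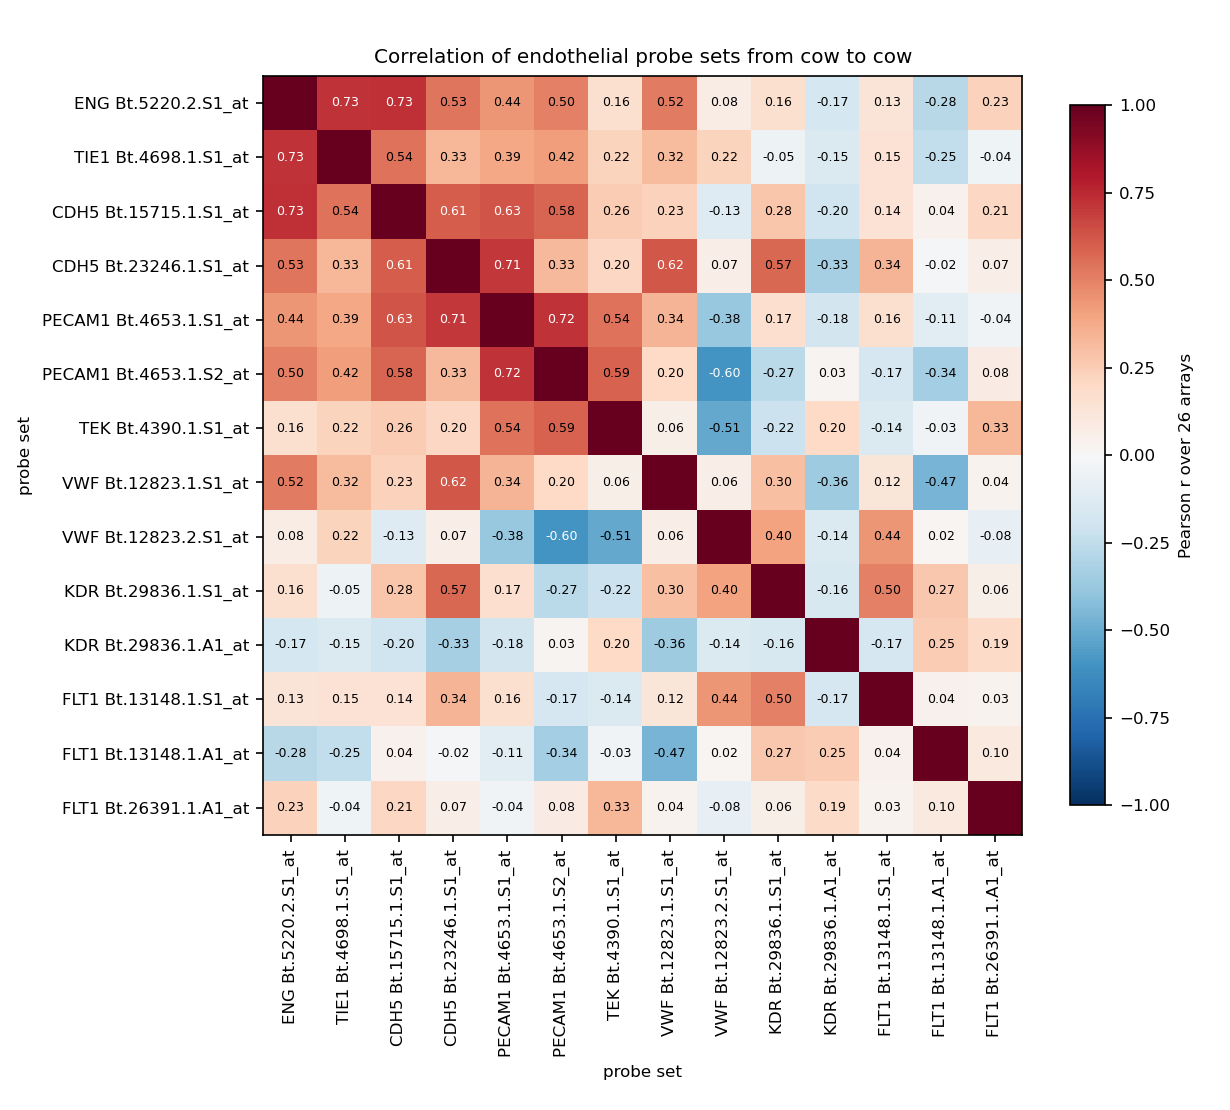
Pearson r between each pair of the 14 endothelial probe sets over 26 arrays (all but AA 2 and AA 9), from blue at -1 to red at 1. ENG, TIE1, CDH5 and PECAM1 form a block of positive values from 0.33 to 0.73, not all of which passed the test. The A1 probe sets of KDR and FLT1 and VWF Bt.12823.2.S1_at lie outside this block. TEK, also outside, has 0.54 and 0.59 with the PECAM1 probe sets.

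Probe sets of 1 gene did not always read alike, which bears on every gene mean above. Of 7 same-gene pairs, those of PECAM1 (r = 0.72, permutation p = 3e-05, adjusted over 91 probe set pairs 0.00091) and CDH5 (r = 0.61, permutation p = 0.00093, adjusted 0.0121) passed. The KDR pair had r = -0.16 (permutation p = 0.433), the VWF pair 0.06 (permutation p = 0.763), and the 3 FLT1 pairs 0.03 to 0.10. Among the 84 pairs of different genes 16 passed, 14 positive and 2 negative. Both negative ones held VWF Bt.12823.2.S1_at, against PECAM1 Bt.4653.1.S2_at (r = -0.60, permutation p = 0.00129, adjusted 0.0147) and TEK (r = -0.51, permutation p = 0.00804, adjusted 0.0446). A positive one was KDR Bt.29836.1.S1_at with CDH5 Bt.23246.1.S1_at (r = 0.57, permutation p = 0.00183, adjusted 0.0151), at 0.13 and 0.79 within the ranges. With the other CDH5 and the PECAM1 probe sets this KDR probe set had 0.28, 0.17 and -0.27. KDR Bt.29836.1.A1_at had -0.33 with CDH5 Bt.23246.1.S1_at.

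Set against the mean of the other 7 genes, r was 0.73 and 0.70 for the CDH5 probe sets, 0.73 for ENG, 0.62 and 0.48 for the PECAM1 probe sets and 0.60 for TIE1. VWF Bt.12823.1.S1_at reached 0.45, TEK 0.28, KDR Bt.29836.1.S1_at 0.21 and FLT1 Bt.13148.1.S1_at 0.20. The lowest were FLT1 Bt.13148.1.A1_at at -0.24, KDR Bt.29836.1.A1_at at -0.19 and VWF Bt.12823.2.S1_at at -0.11. These values describe 26 arrays and carry no test. The KK minus AA difference at the unadjusted level, in FLT1 Bt.13148.1.A1_at, thus lies in the probe set that followed the other endothelial genes least. The KK minus KA difference at that level lies in CDH5 Bt.23246.1.S1_at, at 0.70.

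Other genes of blood vessel endothelium followed the mean of the 8 genes. A list of 41 such genes, of which 29 were measured by 42 probe sets, had a mean with r = 0.80 and rho = 0.82 against it over 26 arrays. It was 0.73 without the 2 farthest arrays, and 0.86 and 0.67 within array numbers 29 to 42 and 43 to 56. Of its 42 probe sets 35 had r above 0, and 13 reached 0.5 (31.0%), against 4.68% of the 13278 probe sets outside the members with 1 symbol. CD93, a receptor of endothelial cells, had 0.83 and ROBO4, a guidance receptor of vessels, 0.76. CD34, also found on blood progenitors, had 0.59, EMCN (endomucin) 0.57 and 0.45 in its probe sets, CLDN5, a tight junction protein, 0.57, and PLVAP, a protein of capillary fenestrae, 0.54 and 0.50. NOS3, the endothelial nitric oxide synthase, had 0.50 over 26 arrays and 0.16 and 0.35 within the ranges. PTPRB had 0.27 over 26 arrays and -0.33 and 0.36 within the ranges.

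The list's own differences between genotypes were as small as those of the 8 genes. In KA minus AA, 6 of its 42 probe sets were higher and 1 lower at an unadjusted limma p under 0.05 (10.8% and 11.1% of all), with a median of 0.11. In KK minus AA 1 was higher and 0 lower (2% and 1.51%), with a median of 0.02, and none passed the adjusted test in either. The list averaged 0.03 ± 0.15 in KK (SD, n = 4), 0.10 ± 0.12 in KA (n = 13) and 0.04 ± 0.15 in AA (n = 11). NOS3 differed by 0.20 ± 0.08 in KA minus AA (SE; adjusted p = 0.187), and PTPRB, the vascular phosphatase that acts on TEK, by 0.30 ± 0.10 (adjusted p = 0.140). CLDN5, EMCN, CD34 and PLVAP lay between -0.16 and 0.16, with adjusted p of 0.435 or more.

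**Figure D4:**
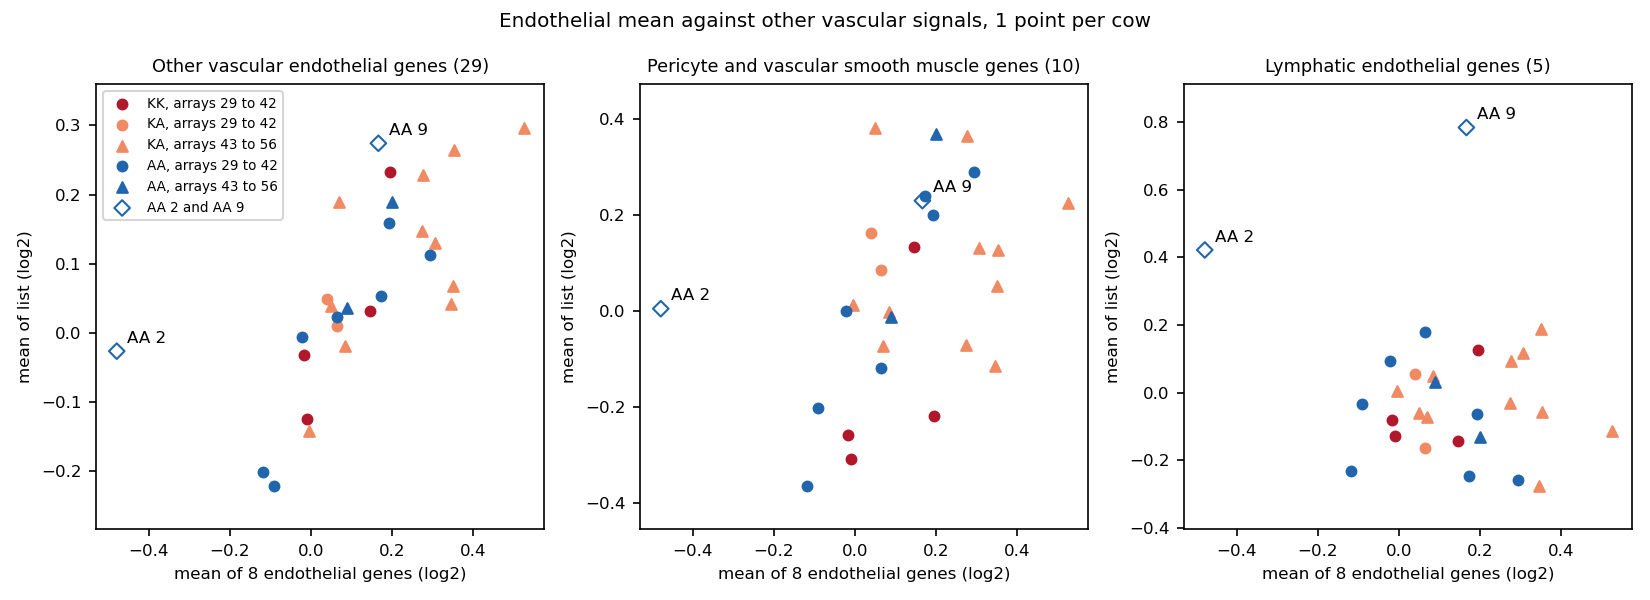
Mean of the 8 endothelial genes of each cow (x axis, log2) against the mean of 29 other vascular endothelial genes, 10 pericyte and vascular smooth muscle genes and 5 lymphatic endothelial genes (y axes, log2); circles are array numbers 29 to 42, triangles 43 to 56. The 26 arrays rise together in the left panel (r = 0.80) and show no slope in the right one (r = -0.01); AA 2 and AA 9 are marked.

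Ligands and partners of the receptors also followed the endothelial mean when averaged over their list. The list of 24 VEGF, angiopoietin and TGF-beta family genes, 18 of them measured by 24 probe sets, had r = 0.79 and rho = 0.76, and 0.57 and 0.84 within the ranges. VEGFA, the main KDR ligand, had r = 0.67 and 0.59 in its 2 probe sets, ACVRL1, a BMP receptor that works with ENG, 0.66, and ANGPT2, the angiopoietin released by endothelial cells, 0.43. VEGFB had 0.34, NRP1, a VEGF co-receptor, 0.32, ANGPT1 0.29, PTPRB 0.27, VEGFC 0.19 and PGF -0.09. ACVRL1 and PTPRB are held by this list and the one before, so the list means share genes. In KA minus AA 7 of 24 probe sets were higher and 3 lower at the unadjusted level (10.8% and 11.1% of all), and none passed the adjusted test. VEGFA Bt.4138.1.S1_a_at differed by 0.51 ± 0.20 in KA minus AA (SE; limma, adjusted p = 0.178) and by 0.26 without AA 2 and AA 9. VEGFA Bt.4138.2.S1_at differed by 0.32 ± 0.17 (adjusted p = 0.258) and by 0.16 without those arrays. VEGFB differed by -0.32 ± 0.15 (adjusted p = 0.214) and by -0.12 without those arrays. In KK minus KA ANGPT1, the activating TEK ligand, differed by -0.34 ± 0.15 (SE; adjusted p = 1.000).

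Other cell types of the biopsy followed the endothelial mean less or not at all over the 26 arrays. Pericyte and vascular smooth muscle genes had r = 0.49 and rho = 0.46, but 0.71 and 0.11 within the ranges. The contractile genes of that list cannot be assigned to vessels here. Lymphatic endothelial genes, which share many products with blood vessels, had r = -0.01 and rho = 0.0024. Luminal milk epithelium had 0.25, capillary lipid handling 0.19, fibroblasts 0.15, platelets 0.10, myeloid cells -0.05, adipocytes -0.08 and B and plasma cells -0.16. T cell genes had -0.37 and red blood cell genes -0.39, with -0.47 and -0.44 for the second within the ranges. Luminal epithelium split to 0.75 and -0.11 and fibroblasts to 0.54 and -0.22 within the ranges. The control 3 prime minus 5 prime difference had r = -0.06 over 26 arrays and -0.41 over 28. DGAT1 itself had r = 0.59 with the endothelial mean, at 0.29 and 0.85 within the ranges. All of these are descriptions of arrays that share their array number range and genotype makeup.

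**Figure D5:**
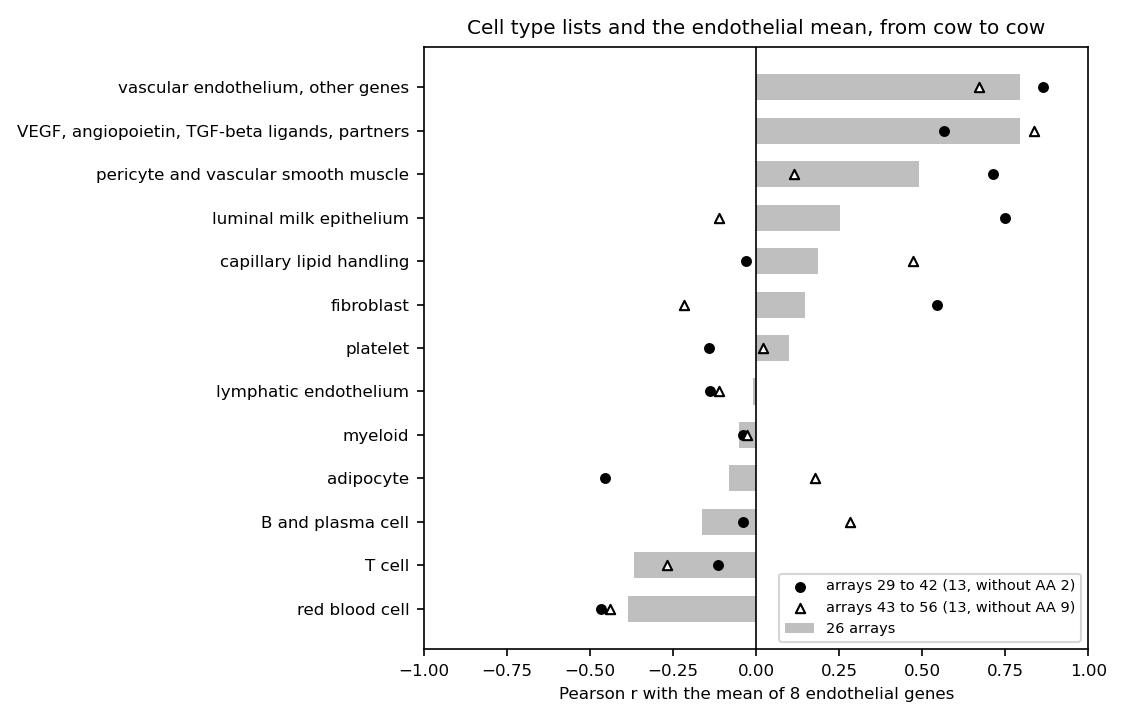
Pearson r of the mean of each cell type list with the mean of the 8 endothelial genes: grey bars over 26 arrays, filled circles within array numbers 29 to 42 and open triangles within 43 to 56. Other vascular endothelial genes (0.80) and ligands and partners (0.79) lead, and T cells (-0.37) and red blood cells (-0.39) end the order.

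The single probe sets most like the endothelial mean were led by COL4A1 (r = 0.87), a chain of the basement membrane collagen, and EHD2 (0.86), a protein of caveolae. CD93 (0.83), CRIP2 (0.82), CDH13 (0.82), a cadherin of vessels and other tissues, RING1 (0.80), NES (0.79), an intermediate filament of immature cells, MYO1C (0.78), RBPMS (0.77) and ROBO4 (0.76) followed. Of these 10, NES had the lowest value within array numbers 29 to 42, at 0.40 against 0.86 in 43 to 56. The median r over the 13278 probe sets was -0.0008, and 39 reached 0.7. The least like were CFDP2 (-0.70), PELO (-0.68), MIIP (-0.67), LYPD1 (-0.67) and CRYZL1 (-0.66). The mean of the KDR probe sets, which had r = -0.16 with each other, was most like ADAP1 (0.80), DPM2 (0.76) and MADD (0.75). The mean of the VWF probe sets, with r = 0.06 between them, was most like NADK (0.88), AKT1 (0.84) and CCNY (0.84). None of these 6 was among the 10 most like the mean of the 8 genes.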

How the data were processed

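Bioconductor 2.7 and R 2.13 are the software named per the labels' protocols, and RMA and GCRMA are both listed per the submitters' processing notes, without saying which made the table. What the authors deposited is a log2 value for each probe set and array, less a baseline that no source describes. The members and lists were chosen with earlier results of these data known. The named genes were all member probe sets, 24 genes of the lists fixed by name (ESAM, GPIHBP1 and PROX1 had no probe set under that symbol), and the probe sets most and least like the endothelial mean.

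From 24128 probe sets 112 controls were left out. The annotation gave 1 symbol for 13292 probe sets, several for 86 and none for 10638, and 13263 of the 13292 gene IDs, with those of all 8 genes, were in the RefSeq table of ARS-UCD2.0. limma 3.58.1 in R 4.3.3 (lmFit, eBayes) fitted a mean per genotype, and the slope per K allele in a second fit, with the Benjamini-Hochberg method applied to all 24016 at a threshold of 0.05. Folds are 2 to the power of the log2 difference. Correlations used Python 3.11.15 and scipy 1.17.1 with 100000 resamples. The scripts were tested on simulated data. Array numbers come from the titles, and whether they mark a batch is not stated. Alternatives were quantile normalization, centred arrays, array weights, array number ranges, gene means and arrays left out. No sequences or coordinates are given.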

Additional observations from a re-analysis of the deposited data

Results flagged for a closer look

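In 15 series of the 4 KK arrays, those of the 14 endothelial probe sets and their mean, an array was marked where its gap to the nearest other KK array exceeded Dixon's 95% critical share of the range. There were 2 such arrays, and chance marks about 1 in 20 groups. KK 1 stood above the other KK arrays in FLT1 Bt.13148.1.A1_at, at 0.35 log2 against 0.03 to 0.08 in the others, and without it KK minus AA was 0.18. KK 4 stood below the others in FLT1 Bt.26391.1.A1_at, at -0.47 against 0.12 to 0.18, and without it KK minus AA was 0.32.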

How the results depend on the processing

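In KA minus AA, 47 probe sets passed under quantile normalization, 104 with array weights, 4 with gene means (of 19879), 1 with the array number block without AA 2 and AA 9 (chosen after seeing the data) and 2181 within array numbers 43 to 56, where the slope is the same comparison; none was endothelial. With array weights 3 passed in KK minus KA. Leaving out 1 array gave 0 to 525 calls in KA minus AA, the 525 without AA 1, of which 0 to 1 was endothelial (KDR), and 0 to 0 in the other comparisons. The medians then ranged over -0.024 to 0.086 in KK minus AA, 0.10 to 0.17 in KA minus AA, -0.16 to -0.064 in KK minus KA and 0.025 to 0.092 in the slope. The KK minus KA median was 0.046 with the block, 0.049 within 29 to 42 and 0.061 with the block without AA 2 and AA 9. Of the 28 gene pairs 14 passed over all 28 arrays, 2 within 43 to 56 and 4 to 10 with 1 array left out (10 without KA 2), and 18 of 91 passed as single probe sets; the median r was 0.19 to 0.27 with 1 array left out and -0.034 within 29 to 42.

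Small differences changed sign. In KK minus AA, VWF Bt.12823.1.S1_at was 0.0525 with the block and 0.069 within 29 to 42, CDH5 Bt.23246.1.S1_at 0.0094 and 0.0087, and TIE1 0.054 and 0.023. PECAM1 was -0.0097 in Bt.4653.1.S1_at with the block without AA 2 and AA 9 and -0.0285 as a gene mean. ENG was -0.10 under quantile normalization, -0.16 without AA 2 and AA 9, -0.15 with weights and -0.028 with the block without them. In KA minus AA, without AA 2 and AA 9, VWF Bt.12823.2.S1_at was -0.016, KDR Bt.29836.1.A1_at -0.055 and TEK 0.033. With the block too, VWF Bt.12823.2.S1_at was -0.069, FLT1 Bt.26391.1.A1_at -0.085, TEK 0.066, TIE1 -0.090 and ENG -0.15. Within 29 to 42, VWF Bt.12823.2.S1_at was -0.19, FLT1 Bt.13148.1.A1_at -0.022, FLT1 Bt.13148.1.S1_at -0.10, TEK 0.071 and TIE1 -0.16. KDR Bt.29836.1.A1_at was -0.026 under quantile normalization and -0.032 with weights, TIE1 -0.0061 with the block, and PECAM1 0.057 as a gene mean. Leaving out 1 array changed the sign of 20 such values, which ranged in KK minus AA over -0.29 to 0.073 for VWF Bt.12823.1.S1_at, -0.076 to 0.0083 for CDH5 Bt.15715.1.S1_at, -0.14 to 0.0013 for CDH5 Bt.23246.1.S1_at, -0.027 to 0.21 for TEK, -0.020 to 0.20 for PECAM1 Bt.4653.1.S1_at, -0.22 to 0.057 for PECAM1 Bt.4653.1.S2_at, -0.094 to 0.12 for TIE1 and -0.15 to 0.11 for ENG, and in KA minus AA over -0.011 to 0.067 for KDR Bt.29836.1.A1_at. The cause was not tested. No paired analysis was possible because array numbers are all distinct and replicate numbers only name cows. Signal over background is unknown, since only a coarse class of the lowest level is left.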

Other observations

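The genes around the endothelium differed between genotypes by amounts that did not pass the adjusted limma test. The pericyte and vascular smooth muscle list names contractile genes such as ACTA2, TAGLN, MYH11 and CNN1. The cells that carried them, in vessel walls or elsewhere, were not told apart. The genes of this list averaged -0.16 ± 0.20 in KK (SD, n = 4), 0.10 ± 0.16 in KA (n = 13) and 0.06 ± 0.23 in AA (n = 11). In KK minus KA 11 of their 12 probe sets were below 0, with a median of -0.25, and 3 were lower at an unadjusted limma p under 0.05 (1.39% of all probe sets). RGS5, a pericyte signalling regulator, differed by 0.48 ± 0.18 in KA minus AA (SE; limma, adjusted p = 0.160).

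The list of capillary lipid handling genes was measured without GPIHBP1, and the cells that carried its other genes were not told apart. Of its 10 probe sets 50% had a lowest level of 8 or more. That share was 0% for the endothelial members and 64.3% for luminal milk epithelium. The list averaged -0.03 ± 0.29 in KK (SD, n = 4), -0.08 ± 0.26 in KA (n = 13) and -0.46 ± 0.80 in AA (n = 11). The AA value rested on AA 2 (-1.55) and AA 9 (-2.46), and without them it was -0.11 ± 0.14 (n = 9). CD36, the fatty acid receptor of the list, differed by 0.46 ± 0.25 in KA minus AA (SE; limma, adjusted p = 0.264) and by 0.03 without these arrays. FLT4, the receptor of lymphatic endothelium, differed in KA minus AA by 0.39 ± 0.13 (adjusted p = 0.143) in Bt.16013.1.A1_at and by 0.12 ± 0.11 (adjusted p = 0.470) in Bt.16013.1.S1_at, and by 0.23 and 0.034 without these arrays. LYVE1, a hyaluronan receptor of the same cells, differed by -0.32 ± 0.21 (adjusted p = 0.343) and -0.43 ± 0.25 (adjusted p = 0.304), and by -0.058 and -0.091 without them. Of the 8 probe sets of the lymphatic list 4 were above 0 in KA minus AA, with a median of 0.0066.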
